A study of Homo sapiens with 6 samples.

Results

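The genes described here encode cytosolic and mitochondrial chaperones of the HSP70 family and the related HSP110 family, measured in xenografts of the human colorectal adenocarcinoma line HT-29. They are 10 genes, HSPA1A, HSPA1B, HSPA1L, HSPA2, HSPA4, HSPA4L, HSPA6, HSPA8, HSPA9 and HSPH1, and every probe set that the platform annotation pairs with one of them was taken, including those that name several genes. The array names 19775 genes by a probe set of their own. The choice gave 25 of the 54675 probe sets on the array, of which 18 named 1 gene and 7 named several. The rule itself uses no measured value. A probe set is a group of short array probes whose signals are summarised into 1 value for a transcript.

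Treated tumours were heated by an electromagnetic field (modulated electro-hyperthermia) for 30 min on day 18 after the cells had been injected, and were sampled 4 h later. Opposite-side tumours were the unheated tumours on the other side of the treated animals, and control tumours came from animals described as control. All tumours grew in both femoral regions of Balb/c (nu/nu) mice that were 6 to 8 weeks old at injection. Such nude mice lack a thymus and mature T cells but keep other immune cells and host stroma, and all tumours descend from a single cell line. RNA of a group was pooled and the pool was run on 2 arrays, technical replicates according to the labels, and how many animals entered a pool is not given in the sources used here. No test between conditions was therefore possible, every SD below is that of the 2 arrays of a pool, and the number of arrays limits the precision.

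HSP70 proteins bind exposed hydrophobic stretches of unfolded proteins and release them in a cycle driven by ATP. J-domain proteins such as DNAJB1 start the cycle by stimulating ATP hydrolysis, and nucleotide exchange factors, among them the BAG proteins and the HSP110 proteins, end it by exchanging ADP for ATP. Heat unfolds proteins and releases the transcription factor HSF1, which binds heat shock elements, inverted repeats of the triplet GAA, in front of its target genes. HSPA1A, HSPA1B and HSPA6 are the stress-inducible cytosolic forms, HSPA8 is the constitutive cytosolic form, and HSPA9 (mortalin) works in the mitochondrial matrix. HSPH1, HSPA4 and HSPA4L form the HSP110 family, while HSPA1L and HSPA2 are best known from the testis.

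The 2 arrays of a pool lay close together. Over the 17 HSP70 and HSP110 probe sets detected in a pool, meaning at or above 5 on the log2 scale on both of its arrays, the largest gap between 2 arrays of a pool was 0.194 and the median gap 0.020, beside a median of 0.052 over all 12768 detected probe sets. The other 8 probe sets were detected in no pool. HSPA4L and HSPA2 had no detected probe set, and HSPA1L had one only through a probe set it shares with HSPA1A and HSPA1B. Of 10 markers of colon carcinoma cells 8 were detected, among them EPCAM, KRT20 and VIL1, while the intestinal transcription factor CDX2 (2.53 in every pool) and the cadherin CDH17 were not.

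The promoters of the inducible, constitutive and mitochondrial genes are shown so that the heat shock elements in front of each can be set beside its values. The sequences are from RefSeq (GRCh38.p14) and run from 250 bases before to 50 bases after the annotated start, 5′ to 3′ on the strand of the gene. All 10 genes matched, with 3 windows for HSPA4L and 1 for each of the others. Capitals mark 2 facing heat shock triplets (GAANNTTC or TTCNNGAA, each its own reverse complement), 3 triplets in a row (GAANNTTCNNGAA or its reverse complement TTCNNGAANNTTC, which contain both shorter forms), and TATAAA, searched on both strands. The windows are chr1:161524290-161524589 (forward strand) for HSPA6, chr6:31815293-31815592 (forward) for HSPA1A, chr6:31827488-31827787 (forward) for HSPA1B, chr13:31162339-31162638 (reverse) for HSPH1, chr11:123062087-123062386 (reverse) for HSPA8 and chr5:138575352-138575651 (reverse) for HSPA9.
HSPA6: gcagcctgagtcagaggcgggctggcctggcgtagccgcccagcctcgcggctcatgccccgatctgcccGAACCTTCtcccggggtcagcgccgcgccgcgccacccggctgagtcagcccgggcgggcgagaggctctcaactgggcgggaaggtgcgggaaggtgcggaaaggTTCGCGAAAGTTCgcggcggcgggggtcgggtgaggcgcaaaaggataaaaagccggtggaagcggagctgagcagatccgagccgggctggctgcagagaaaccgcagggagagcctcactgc
HSPA1A: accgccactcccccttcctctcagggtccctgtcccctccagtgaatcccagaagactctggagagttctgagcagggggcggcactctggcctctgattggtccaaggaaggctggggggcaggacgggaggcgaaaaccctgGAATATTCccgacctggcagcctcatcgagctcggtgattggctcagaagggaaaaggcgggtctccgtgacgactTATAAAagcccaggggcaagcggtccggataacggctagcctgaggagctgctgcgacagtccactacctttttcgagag
HSPA1B: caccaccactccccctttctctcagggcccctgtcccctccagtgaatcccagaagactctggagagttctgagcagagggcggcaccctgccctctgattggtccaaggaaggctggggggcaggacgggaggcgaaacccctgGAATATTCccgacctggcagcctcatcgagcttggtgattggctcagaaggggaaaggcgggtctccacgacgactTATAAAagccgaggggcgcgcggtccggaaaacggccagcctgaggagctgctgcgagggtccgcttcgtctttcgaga
HSPH1: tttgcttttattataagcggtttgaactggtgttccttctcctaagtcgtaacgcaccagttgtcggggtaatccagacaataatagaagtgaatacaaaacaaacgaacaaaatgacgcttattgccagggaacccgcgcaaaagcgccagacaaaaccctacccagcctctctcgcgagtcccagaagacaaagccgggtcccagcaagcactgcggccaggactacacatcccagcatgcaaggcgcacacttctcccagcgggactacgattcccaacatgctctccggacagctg
HSPA8: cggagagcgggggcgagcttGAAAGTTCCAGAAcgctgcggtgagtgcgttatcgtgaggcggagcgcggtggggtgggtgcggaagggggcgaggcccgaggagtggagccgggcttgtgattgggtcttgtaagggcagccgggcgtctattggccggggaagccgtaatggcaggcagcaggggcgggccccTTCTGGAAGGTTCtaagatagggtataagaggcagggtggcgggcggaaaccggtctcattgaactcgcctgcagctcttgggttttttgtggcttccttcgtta
HSPA9: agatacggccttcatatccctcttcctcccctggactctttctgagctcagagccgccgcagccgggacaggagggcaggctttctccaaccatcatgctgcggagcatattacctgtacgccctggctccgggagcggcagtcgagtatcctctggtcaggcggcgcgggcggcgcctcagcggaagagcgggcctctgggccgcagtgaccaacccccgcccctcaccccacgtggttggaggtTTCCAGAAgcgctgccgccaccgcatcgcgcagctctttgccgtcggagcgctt

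HSPA6 had 3 triplets in a row beginning 74 bases before the start and a separate facing pair at 180 bases. HSPA8, the constitutive gene, had 3 triplets in a row at 2 places, beginning 230 and 55 bases before the start. HSPA1A and HSPA1B each had 1 facing pair, at 106 and 105 bases, and TATAAA at 30 and 29 bases, and their windows were 92.0% identical over 301 aligned columns. The HSPA1L window, on the reverse strand at chr6:31815234-31815533, overlapped that of HSPA1A by 241 bases and held the same facing pair, the 2 starts being 260 bases apart. HSPA9 had 1 facing pair across its start, 1 of the 3 HSPA4L windows had one, and the windows of HSPH1, HSPA4 and HSPA2 held none of these letters. A facing pair was present in 13.5% of the 35097 promoter windows in the table, 3 triplets in a row in 0.49%, and TATAAA on either strand in 11.5%. A match of letters describes the window and is not a measured binding site, and its absence says only that these letters are not in the window.

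The size rule for a call of higher or lower had 3 parts. Pool means had to be 1 or more apart (2-fold), the 4 differences between single arrays had to share a sign, and neither array of the higher pool could be under 5. In treated against control tumours 9 of the 25 HSP70 and HSP110 probe sets were higher, 0 were lower, 8 were measured without passing and 8 were not detected. Of all 12613 probe sets detected in either pool, 0.801% were higher and 0.238% lower. In treated against opposite-side tumours 11 of the 25 were higher and 0 lower, where 0.368% and 0.104% of 12491 probe sets were. The 9 were among the 11. Of all 101 probe sets called higher than control, 8.91% belonged to these genes, and of all 46 called higher than the opposite side, 23.9% did. In opposite-side against control tumours 0 of the 25 were higher or lower, where 0.334% and 0.27% of 12570 probe sets were. The comparisons share pools and are given side by side, and several probe sets report 1 gene, so these counts are not of independent items.

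**Figure D1:**
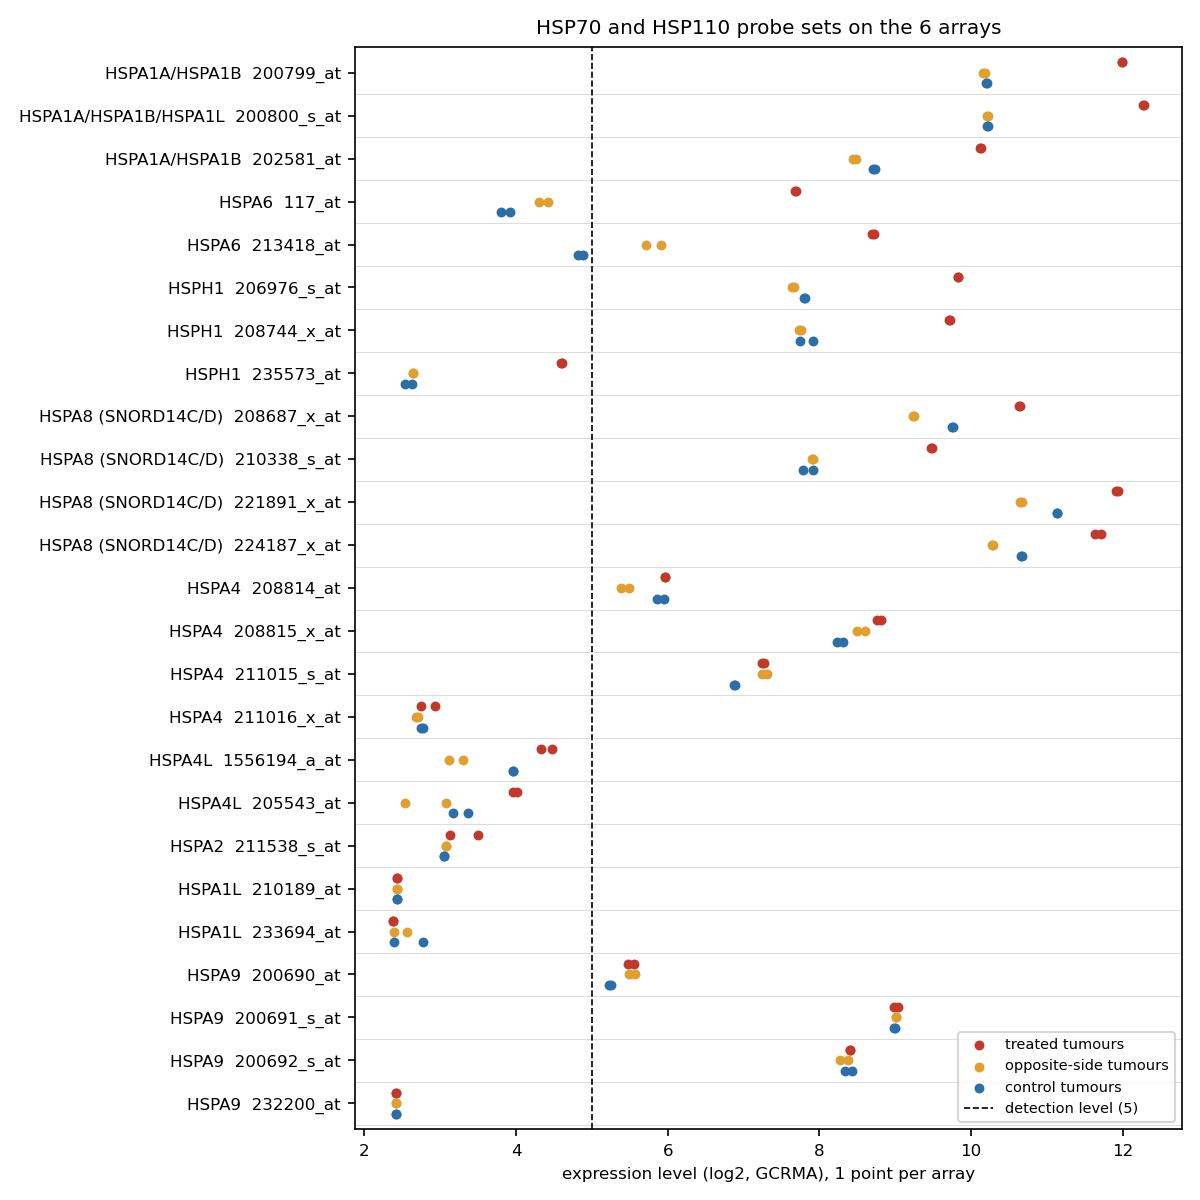
Expression level (x axis, log2 GCRMA value) of each of the 25 probe sets (y axis, with gene names) on the 6 arrays, 1 point per array, treated tumours above opposite-side tumours above control tumours in each row. The treated arrays stand apart to the right for HSPA1A/HSPA1B, HSPA6, HSPH1 and HSPA8, whereas the HSPA9 rows lie nearly on top of each other.

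HSPA6, the strictly inducible HSP70 B' form that is little expressed without stress, showed the largest difference among these genes. Its probe set 213418_at read 8.69 and 8.73 on the treated arrays, 5.72 and 5.91 on the opposite-side arrays and 4.88 and 4.82 on the control arrays. The 3 pools did not overlap, with treated highest and control lowest and below the detection level. The treated pool (8.71 ± 0.023) was at least 13.1-fold above the control pool (4.85 ± 0.048), a bound taken against 5, and 7.44-fold above the opposite-side pool (5.82 ± 0.137; SD, 2 arrays each). The second HSPA6 probe set, 117_at, read 7.70 and 7.68 in treated, 4.42 and 4.30 in opposite-side and 3.93 and 3.81 in control tumours. It was detected in the treated pool alone, in the same order of pools, and stood at least 6.45-fold above both others. HSPA7, a transcribed pseudogene closely related to HSPA6, is named by no probe set, and whether its transcripts add to these signals was not resolved.

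In the unheated opposite-side tumours HSPA6 was the one member near the size rule. Probe set 213418_at was at least 1.76-fold above control, a bound taken against 5 because the control pool lay below it. The difference of the values as deposited was 0.965, with array pairs from 0.83 to 1.10, and for 117_at both pools lay below 5. Whether 213418_at met the size rule turned on the scaling and on 1 array, with the control value below the detection level in every case. The difference of values was 1.00 with arrays set to the same median, 1.02 after quantile normalization, 1.20 with arrays set to the same spike-in median and 1.06 without the first opposite-side array, each of which passed. Without the second opposite-side array it was 0.87.

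HSPA1A and HSPA1B, neighbouring genes that encode the same major inducible HSP70 protein, cannot be told apart here because all 3 of their probe sets name both. Probe set 200800_s_at, which also names HSPA1L, read 12.29 and 12.27 in treated tumours, 10.21 and 10.22 in opposite-side tumours and 10.22 and 10.22 in control tumours. The treated arrays lay far above the rest, and the opposite-side and control arrays overlapped. This was 4.18-fold against either unheated pool, with differences of 2.06 and 2.06. Probe set 200799_at had 12.00 and 12.00 in treated, 10.16 and 10.18 in opposite-side and 10.20 and 10.20 in control tumours, and was 3.54-fold above the opposite side and 3.47-fold above control. Probe set 202581_at had 10.13 and 10.12 in treated, 8.48 and 8.45 in opposite-side and 8.71 and 8.73 in control tumours, which was 3.16-fold and 2.65-fold. Here the opposite-side arrays lay 0.26 below control without overlap, as 41.5% of all probe sets did to any degree. The signal for this pair was thus above the detection level in unheated tumours on all 3 probe sets.

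HSPA1L, which starts beside HSPA1A on the other strand, was not detected by the probe sets that name it alone. Probe set 210189_at stood at 2.43 on all 6 arrays, and 233694_at ran from 2.38 in the treated pool to 2.78 on 1 control array, both near the lowest value of the table, 2.37. The difference seen with the shared probe set cannot be assigned to 1 of its 3 genes.

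HSPH1, the heat-inducible HSP110 that serves HSP70 as a nucleotide exchange factor and holds unfolded proteins soluble, differed by about as much as HSPA1A/HSPA1B. Probe set 206976_s_at read 9.82 and 9.83 in treated, 7.66 and 7.63 in opposite-side and 7.80 and 7.81 in control tumours. Probe set 208744_x_at read 9.72 and 9.71 in treated, 7.76 and 7.73 in opposite-side and 7.74 and 7.91 in control tumours. For both, the treated arrays stood apart, and the opposite-side arrays lay slightly below control for the first and overlapped control for the second. The treated pool was 4.52-fold and 3.92-fold above the opposite side, and 4.05-fold and 3.71-fold above control. The third probe set, 235573_at, lay below 5 throughout, at 4.59 and 4.60 in treated tumours, 2.63 on both opposite-side arrays and 2.62 and 2.54 in control tumours, a difference of 2.02 from control and 1.96 from the opposite side. The order of treated above both other pools was that of the detected probe sets, and no fold is given below the detection level.

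HSPA8 (HSC70) is the abundant constitutive HSP70 that folds new proteins and uncoats clathrin vesicles. All 4 of its probe sets also name SNORD14C and SNORD14D, small nucleolar RNAs encoded within its introns, and all 4 were higher in the treated pool than in the opposite-side pool. Probe set 210338_s_at had 9.47 and 9.48 in treated, 7.90 and 7.91 in opposite-side and 7.78 and 7.92 in control tumours, a difference of 1.57 (2.98-fold) from the opposite side and 1.63 (3.09-fold) from control. The unheated pools overlapped for this probe set.

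The 3 HSPA8 probe sets of the _x_at kind, whose probes can also bind other transcripts, had another order of pools. Probe set 221891_x_at read 11.91 and 11.94 in treated, 10.65 and 10.67 in opposite-side and 11.14 and 11.14 in control tumours. Probe set 224187_x_at read 11.72 and 11.64 in treated, 10.28 and 10.29 in opposite-side and 10.67 and 10.67 in control tumours, and 208687_x_at had 10.65 and 10.63, 9.25 and 9.23, and 9.75 and 9.77 in the same 3 pools. For all 3 the treated arrays were highest and the opposite-side arrays lowest, with no overlap. Treated minus opposite-side differences were 1.27, 1.39 and 1.40, all past the size rule, and treated minus control differences were 0.79, 1.01 and 0.88, of which only that of 224187_x_at passed. That call was lost after quantile normalization (0.96) and without the first treated array (0.97).

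Opposite-side minus control differences of the same probe sets were -0.48, -0.38 and -0.52, at ranks 685, 1137 and 532 from the lowest of 12570 probe sets. With arrays set to the same spike-in median they were -0.24, -0.15 and -0.28. Probe set 210338_s_at, at 0.05, did not share the lower opposite-side level, and why the probe sets differ was not tested.

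**Figure D2:**
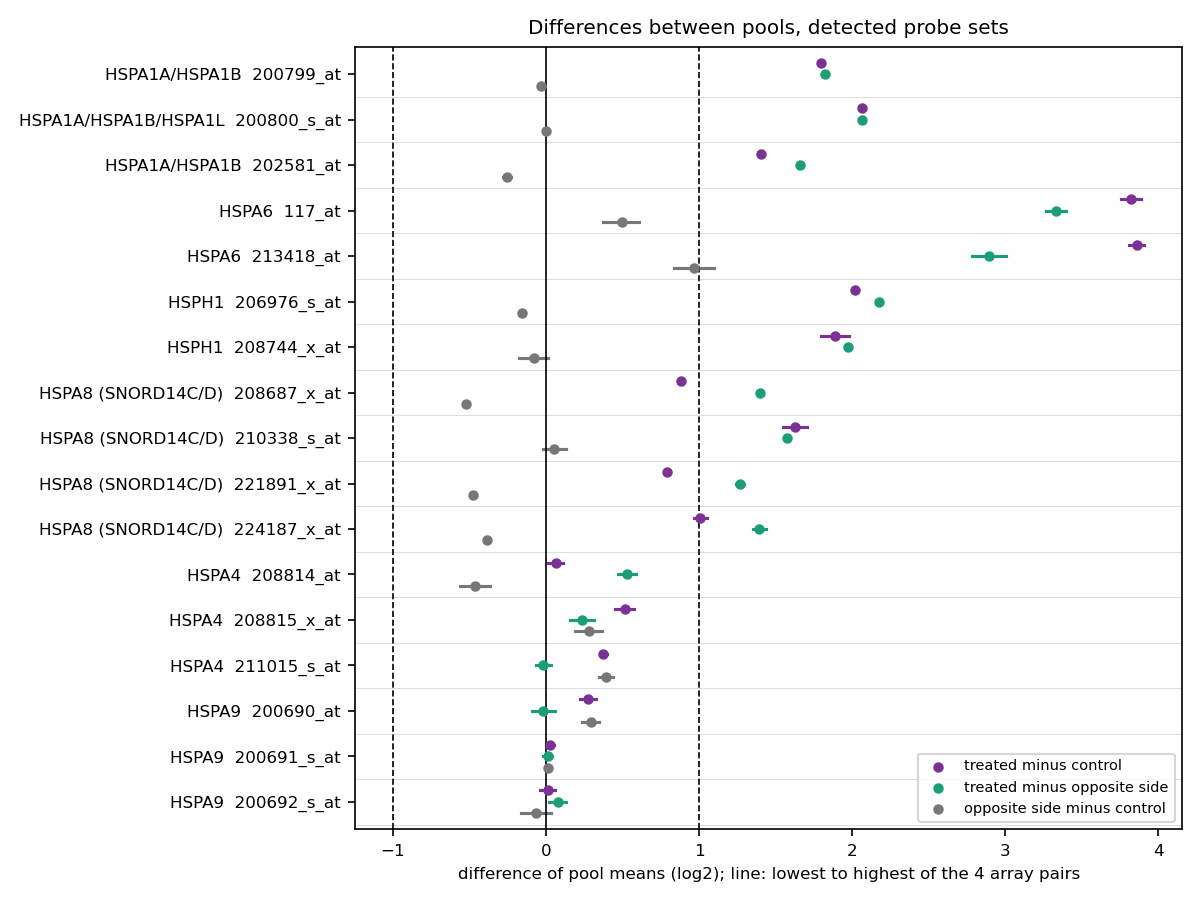
Difference of pool means (x axis, log2) for the 17 detected probe sets (y axis). Points are treated minus control, treated minus opposite side and opposite side minus control, lines run over the 4 array pairs, and dashed lines mark a difference of 1. In the treated comparisons HSPA6 lies farthest right at 2.89 to 3.86, with its control pool below the detection level, HSPA1A/HSPA1B and HSPH1 between 1.40 and 2.18, HSPA8 between 0.79 and 1.63, and HSPA4 and HSPA9 below 1.

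HSPA4 (APG-2), an HSP110 protein expressed in most tissues, did not pass the size rule in any comparison. Probe set 208815_x_at read 8.81 and 8.76 in treated, 8.61 and 8.50 in opposite-side and 8.31 and 8.24 in control tumours, so the pools did not overlap and treated was 0.51 above control and 0.23 above the opposite side. Probe set 211015_s_at read 7.25 and 7.27 in treated, 7.24 and 7.31 in opposite-side and 6.87 and 6.89 in control tumours. There both pools of treated animals lay above control, by 0.38 and 0.39, and overlapped each other. Probe set 208814_at disagreed, at 5.97 and 5.96 in treated, 5.49 and 5.38 in opposite-side and 5.86 and 5.95 in control tumours, with treated 0.53 above the opposite side and 0.06 above control. The 3 detected probe sets thus gave different orders of the unheated pools, and the fourth, 211016_x_at, lay between 2.67 and 2.94.

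HSPA4L (APG-1), the third HSP110 gene, was below 5 on all arrays. Probe set 1556194_a_at had 4.48 and 4.33 in treated, 3.11 and 3.30 in opposite-side and 3.96 and 3.96 in control tumours, and 205543_at had 3.96 and 4.01, 2.54 and 3.07, and 3.36 and 3.17. For both the order was treated, control, opposite side, without overlap, and treated minus opposite-side differences were 1.20 and 1.18. The 2 opposite-side arrays of 205543_at were 0.533 apart, the widest gap between arrays of a pool among all 25 probe sets. HSPA2, an HSP70 of male germ cells, stayed between 3.05 and 3.50 on its 1 probe set.

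HSPA9, the mitochondrial form, imports proteins into the matrix and helps fold them and build iron-sulphur clusters. Its detected probe sets differed little between pools. Probe set 200691_s_at read 8.99 and 9.04 in treated, 9.01 and 9.01 in opposite-side and 8.99 and 8.99 in control tumours, and 200692_s_at read 8.40 and 8.40, 8.27 and 8.38, and 8.34 and 8.44. The treated arrays overlapped those of control for both, with differences of 0.03 and 0.01. Probe set 200690_at had 5.55 and 5.48 in treated, 5.57 and 5.49 in opposite-side and 5.26 and 5.22 in control tumours, so that both pools of treated animals lay above control, by 0.27 and 0.29. The fourth probe set, 232200_at, stood at 2.41 to 2.42 throughout.

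Set out by form, all 7 detected probe sets of the inducible genes HSPA1A, HSPA1B, HSPA6 and HSPH1 were higher in treated tumours than in both unheated pools, with median differences of 2.06 from the opposite side and 2.02 from control. Of the 7 for the constitutive cytosolic genes HSPA8 and HSPA4, 4 were higher than the opposite side and 2 higher than control, with medians of 1.27 and 0.79, and all of those were HSPA8. Of the 3 for mitochondrial HSPA9 0 were, with medians of 0.01 and 0.03. Over all detected probe sets the medians were 0.004 and -0.018. The treated arrays lay wholly above control for 15 of the 17 and above the opposite side for 14 of the 17, where 34.2% and 36.9% of all detected probe sets did. They lay wholly below for 0 of the 17 in both comparisons, where 41.1% (control) and 34.8% (opposite side) of all did. The dimmer HSPA6 probe set was detected in the treated pool alone, so in both treated comparisons it could only lie above. Both HSPA6 differences from control, and that of the dimmer probe set from the opposite side, use values below the detection level. These differences enter the medians of the inducible genes. Opposite-side arrays lay wholly above control for 5 of the 16 detected in either of those pools and wholly below for 7, where 34.2% and 41.5% of all did, so here the shares were near the background.

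**Figure D3:**
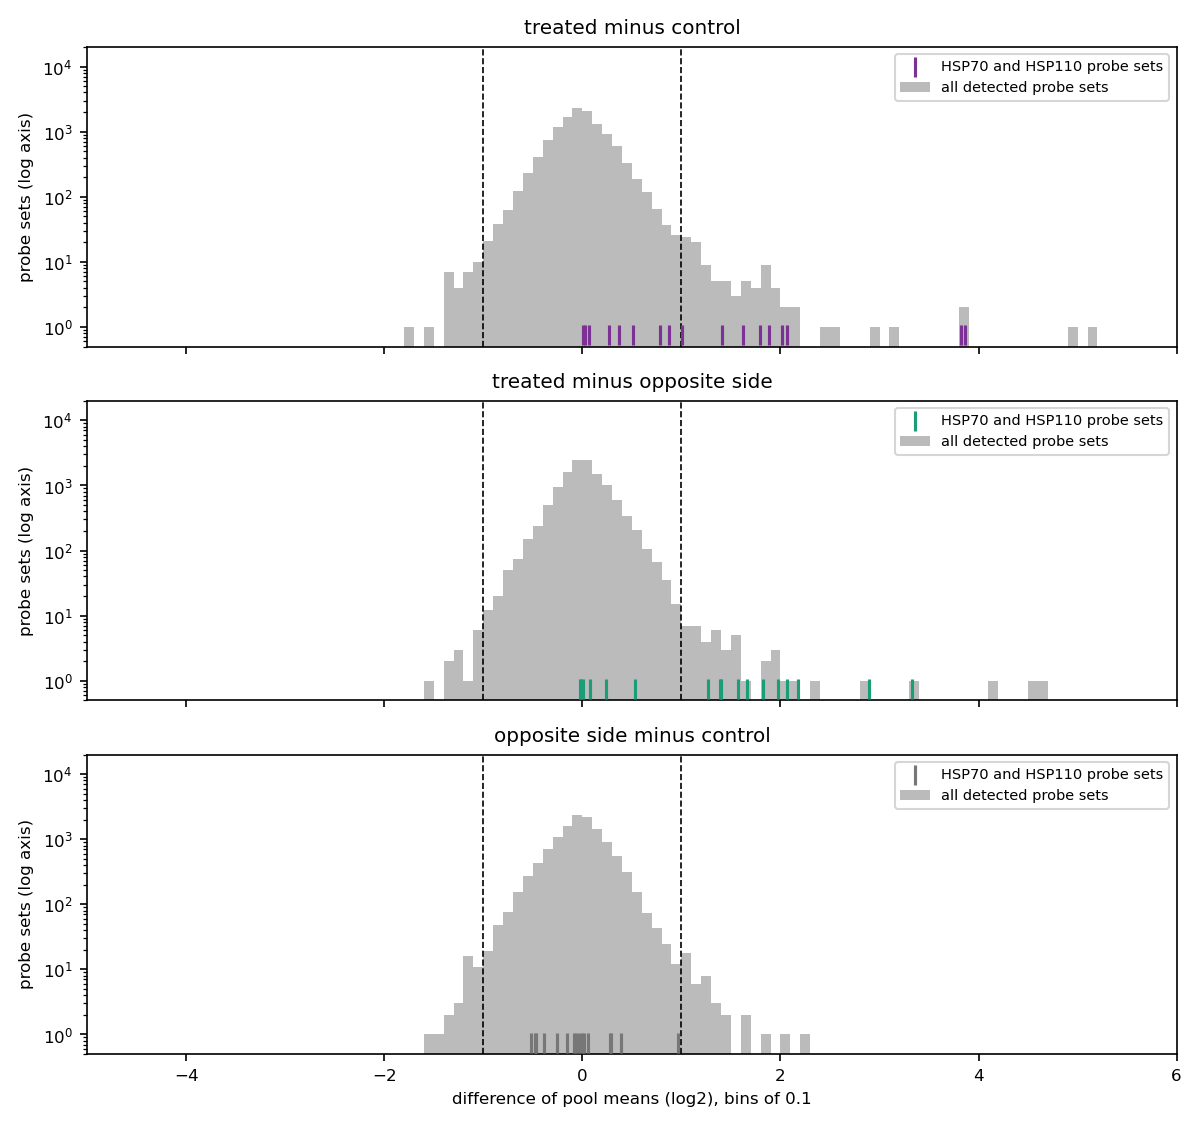
Number of detected probe sets (y axis, log scale) by difference of pool means (x axis, log2, bins of 0.1) in each comparison, with HSP70 and HSP110 probe sets as ticks at the foot and dashed lines at a difference of 1 either way. In the upper 2 panels 9 and 11 ticks lie right of the line, and in the opposite-side minus control panel 0 do.

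The genes nearest in pattern had the smallest distance in the pair of differences, treated minus control and treated minus opposite side. Candidates over the 3 pools were 6999 genes (6998 for HSPH1) detected in treated tumours, each by its brightest probe set naming it alone. HSPA1A, HSPA1B and HSPA8 have no such probe set and could not be listed as neighbours. Nearest among them to the HSPH1 probe set 208744_x_at (1.89 and 1.97) was DNAJB1, the J-protein that activates cytosolic HSP70. It had 1.91 and 1.88 and a distance of 0.096, followed by PHLDB2 (0.176) and ZFAND2A (0.429). For the HSPA1A/HSPA1B probe set 200800_s_at the nearest were HSPH1 (0.196), DNAJB1 (0.238) and PHLDB2 (0.371). This probe set, though not a candidate, thus lay closer to HSPH1 than ZFAND2A did. Probe set 200799_at, at 1.795 and 1.825, was near HSPH1 as well. For the HSPA8 probe set 221891_x_at (0.79 and 1.27) the nearest was DNAJA1, another cytosolic J-protein, at 0.76 and 1.30 and a distance of 0.047. UBASH3B (0.345) and EDN1 (0.383) followed. This likeness is that of 1 HSPA8 probe set, the brightest, and 210338_s_at had differences of 1.63 and 1.57. For HSPA6 (3.86 and 2.89) the nearest were CRYAB, at 2.99 and 1.91 and a distance of 1.31, HBE1 (1.83) and the probe set annotated Igk (1.93). These distances use the value of the control pool below the detection level, where the HSPA6 difference is only bounded from below. Genes could also enter through the treated pool alone. With 3 pools such likeness describes 2 numbers for each gene.

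Partners and relatives of HSP70 were next examined by list, each gene represented by its brightest probe set that names it alone. Of the 4 genes past the size rule in 1 or both comparisons, BAG3 is a nucleotide exchange factor that links HSP70 to autophagy. It read 9.82 and 9.75 in treated, 8.33 and 8.37 in opposite-side and 7.95 and 7.91 in control tumours. DNAJB1 read 8.59 and 8.62 in treated, 6.73 and 6.73 in opposite-side and 6.66 and 6.72 in control tumours. CHORDC1, a co-chaperone better known with HSP90, read 8.35 and 8.28 in treated, 6.89 and 6.93 in opposite-side and 7.08 and 7.09 in control tumours. All 3 were higher than both unheated pools, BAG3 by 2.71-fold and 3.62-fold, DNAJB1 by 3.68-fold and 3.77-fold and CHORDC1 by 2.65-fold and 2.34-fold (opposite side first, then control). The opposite-side BAG3 arrays lay 0.42 above control without overlap. DNAJA1, at 9.15 and 9.12 in treated, 7.83 and 7.84 in opposite-side and 8.36 and 8.39 in control tumours, was 2.47-fold above the opposite side, was 0.76 above control without passing, and its opposite-side arrays lay 0.55 below control, the same order as the HSPA8 _x_at probe sets.

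By list, 1 of 9 detected nucleotide exchange factors was higher than control and 0 lower, with a median difference of -0.04. BAG4 differed by 0.85, BAG1 by -0.56 and GRPEL2, which serves HSPA9, by 0.34. BAG4 was detected in the treated pool alone, at 5.36 and 5.27 beside means of 4.51 on the opposite side and 4.47 in control tumours. It entered the count and the median through that pool, and its difference uses a value below the detection level. Of 6 detected J-proteins 1 was higher than control and 2 higher than the opposite side, with medians of 0.40 and 0.38. DNAJA2 and DNAJB2 differed from control by 0.44 and 0.36. DNAJB2 was likewise detected on both arrays in the treated pool alone, with a control array at 4.975, and enters both medians. Of 6 detected genes on the adaptor list 1 was higher than control, CHORDC1, named above as better known with HSP90. The median of that list was -0.12, with the ubiquitin ligase STUB1 at -0.43, CDC37 at -0.33 and ST13 at -0.31. Over all 7120 detected genes 0.632% were higher and 0.0983% lower than control, with a median of -0.02, and 0.283% of 7064 were higher and 0.0566% lower than the opposite side. Between the unheated pools 0 genes of these lists passed, where 0.24% of 7084 genes were higher and 0.169% lower.

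Other HSP70 genes, not all of organelles, and the partners of mitochondrial HSP70 stayed inside the size rule, as HSPA9 did. Of 4 other detected HSP70 genes 0 passed in either comparison. Of all detected genes only 0.632% were higher than control and 0.283% higher than the opposite side. Counts of 0 in lists this small are therefore near the background. HSPA5 (BiP), the HSP70 of the endoplasmic reticulum, read 11.21 and 11.20 in treated, 11.01 and 10.99 in opposite-side and 10.61 and 10.65 in control tumours, 0.57 above control and 0.21 above the opposite side without overlap. HYOU1, its HSP110-like partner, differed from control by 0.19, HSPA13 by 0.25 and HSPA14, which works at the ribosome, by -0.11. HSPA13 was detected in the treated pool alone, at 5.13 and 5.11 beside means of 4.87 in both other pools. Its difference thus uses a value below the detection level. Of 6 detected partners of mitochondrial HSP70 0 passed, with a median of -0.01, and the mitochondrial chaperonins HSPD1 and HSPE1 differed from control by 0.45 and 0.46 and the protease LONP1 by -0.21. Of the heat shock factor list HSBP1 alone was detected, at -0.12, while HSF1 lay at 4.78 in treated, 4.78 in opposite-side and 4.84 in control tumours, below the detection level. HSF2, also listed, had no probe set naming it alone and was not assessed.

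**Figure D4:**
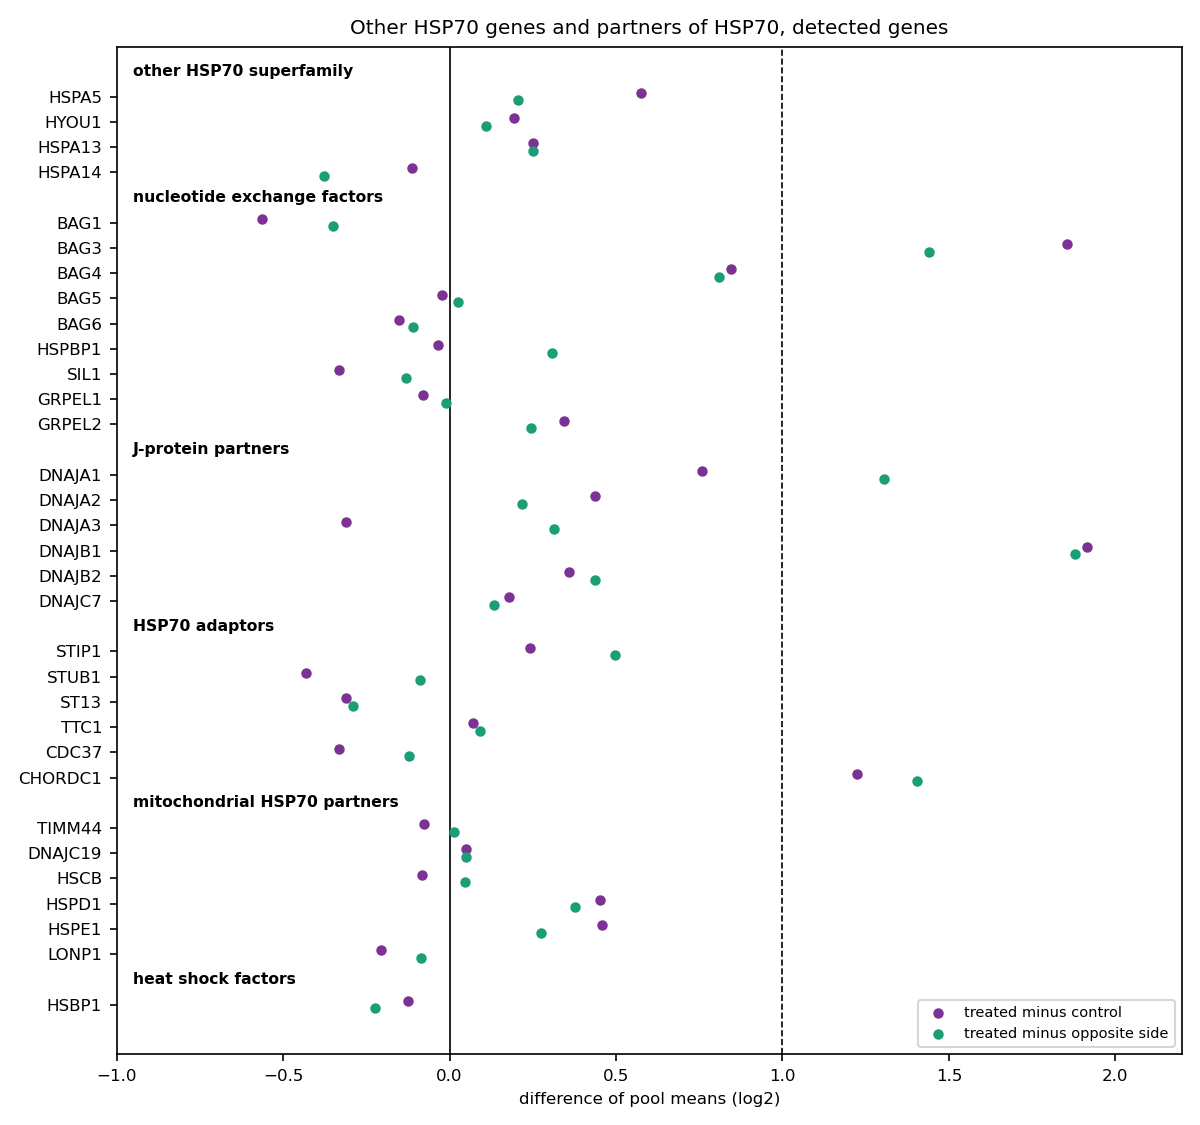
Difference of pool means (x axis, log2) for detected relatives and partners of HSP70 (y axis, by list), treated minus control and treated minus opposite side, with a dashed line at 1. BAG3, DNAJB1 and CHORDC1 lie right of the line in both comparisons and DNAJA1 in that with the opposite side.

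Markers of other cell types moved with the comparison to control in part. Over all detected genes 0.632% were higher than control. Of 8 skeletal muscle markers 4 were detected and 2 (ACTA1, MYL11) were higher than control. Of the other 2, TNNT1 lay the other way, at 6.69 and 6.69 in treated, 6.82 and 6.82 in opposite-side and 7.18 and 7.09 in control tumours (-0.45), and TNNT3 differed by 0.06. The summed linear level of all 8 was 310 to 321 on treated, 260 on opposite-side and 250 to 257 on control arrays. ACTA1 was detected in the treated pool alone, at 5.27 beside 4.11 on the opposite side and 3.10 in control tumours. Its differences thus use values below the detection level. They enter the median difference of the detected muscle markers, which was 0.83 from control and 0.41 from the opposite side. Of 8 fibroblast and matrix markers 4 were detected and 2 (TAGLN, VIM) were higher than control, with sums of 792 to 805 on treated, 667 to 682 on opposite-side and 358 to 395 on control arrays and median differences of 0.90 from control and 0.11 from the opposite side. Of 5 leukocyte markers on the array LYZ, which encodes lysozyme, was detected, at 11.81 and 11.83 in treated, 11.72 and 11.76 in opposite-side and 11.62 and 11.57 in control tumours, 0.23 above control without overlap. The sum of those 5 was 3630 to 3680 on treated, 3410 to 3500 on opposite-side and 3060 to 3170 on control arrays. It follows LYZ alone, since PTPRC, CD14, ITGAM and CSF1R lay between 2.37 and 3.11 on every array. Which cells the LYZ signal came from was not tested. Of 6 endothelial markers FLT1 was detected, at 5.09 and 5.09 in treated, 4.95 and 4.94 in opposite-side and 5.10 and 5.16 in control tumours. The muscle enzyme CKM, the fibroblast proteoglycan DCN and the leukocyte and endothelial markers PTPRC and CDH5 lay at or near the lowest value in all pools, and neither red blood cell marker on the array, HBB among them, was detected. Between the unheated pools TAGLN and VIM were also higher on the opposite side than in control, where 0.24% of all detected genes were. ACTA1 was higher in treated tumours than on the opposite side, where 0.283% were. The part of these cells, and of mouse transcripts that bind human probes, in the HSP70 values was not tested, and fewer cells of a type and less RNA per cell cannot be told apart in pooled tissue. In treated tumours the ACTB probe set near the 5′ end of the transcript, which falls when RNA is degraded, differed by 1.11 from control and -0.16 from the opposite side. The corresponding GAPDH probe set differed by -0.46 from control and -0.45 from the opposite side, while the 3′ probe sets differed by 0.23 and 0.08 for ACTB and by -0.03 and -0.03 for GAPDH. The 39 detected spike-in probe sets had median differences of 0.10 and 0.33.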

How the data were processed

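RNA of dissected frozen xenograft sections was labelled with biotin and hybridised to 6 human 1-colour arrays of 54675 probe sets, 2 technical arrays for each of 3 pools. The deposited values are log2 expression levels made with GCRMA per the submitters' processing notes, with no version; the log2 scale was read from their range, 2.37 to 14.51. GCRMA corrects background, normalizes by quantiles and summarises probe sets, so a shift of all genes would be removed and low signals are compressed: 27.8% to 28.5% of each array stood at the lowest value.

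Gene names came from the platform annotation, updated by Entrez identifier. Of them 41097 named 1 gene, 1801 several and 11777 none. For lists a gene was represented by its brightest probe set naming it alone. The members, lists and markers, the size rule and the naming rule (all member probe sets, list genes past the size rule, and up to 4 of each list with the largest difference from control) were chosen with earlier results of these data known. Folds whose lower pool lay below 5 were computed against 5. The size rule was checked on simulated arrays with array error only and changes larger than its minimum. That check holds no variation between animals or pools, so it shows only that the rule was computed as stated. Alternatives were other minimum levels and differences, no required agreement of arrays, linear means, 3 rescalings, fewer probe sets, and leaving out each array. Promoters came from RefSeq. Values were computed in Python 3.11.15 with pandas 2.3.3 and numpy 2.4.6, and plotted with matplotlib 3.10.9.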

Additional observations from a re-analysis of the deposited data

How the results depend on the processing

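No paired analysis was possible because each group is 1 pool, and the technical replicate number names an array and no animal. The counts of probe sets past the size rule moved by over 1.5 times in few settings. With only probe sets that name 1 gene, 4 of 18 were higher than control and 4 of 18 higher than the opposite side. Without the _x_at and _s_at kinds the counts were again 4 and 4, of 12, where the main counts were of 25. The first setting drops every HSPA1A/HSPA1B and HSPA8 probe set and the second every HSPA8 and both detected HSPH1 probe sets. With a minimum of 3-fold 7 were higher than the opposite side. For the opposite side against control the count was 1 in place of 0 with a minimum of 1.5-fold, with arrays set to the same median, after quantile normalization and with arrays set to the same spike-in median, in each case HSPA6. Leaving out 1 array at a time gave 8 to 9 higher than control, 11 to 11 higher than the opposite side, and 0 to 1 between the unheated pools. The other settings of level, fold, agreement, mean and scaling gave 7 to 11 higher than control and 11 to 14 higher than the opposite side. The spike-in scaling moved every treated minus opposite-side difference by -0.23 and every opposite-side minus control difference by 0.24. No called difference changed sign under any alternative run, which the size rule largely fixed in advance. A call needs a difference of 1 or more and array pairs of the same sign. Leaving out an array could therefore not reverse it, and the median and spike-in scalings moved differences by at most 0.24.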
